A study of Homo sapiens with 6 samples.

Results

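The clustered protocadherin genes lie in 3 neighbouring arrays, alpha, beta and gamma, on chromosome 5. Their chromatin was read here from the ChIP-seq peaks that overlap the 735 kb between positions 140160001 and 140895000 of genome build hg19. Membership rested on position alone. The alpha window spans 140160001 to 140395000, the beta window 140425001 to 140632000 and the gamma window 140705001 to 140895000, with a stretch of 30 kb between alpha and beta and of 73 kb between beta and gamma. Of 142800 peaks in the 4 deposited lists, 76 overlapped the region. These were 32 H3K4me3 peaks of Low-Chir, 42 H3K4me3 peaks of Boost-Chir and 1 H3K27me3 peak of each culture.

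The cells were differentiated from WA-09 (H9), a long-established line of human embryonic stem cells, for 11 days toward midbrain dopamine neurons and are labelled as neural progenitors. All cultures began in 0.7 µM CHIR99021, an inhibitor of the kinase GSK3 that activates WNT signalling, together with the morphogen SHH and the signalling inhibitors LDN and SB431542, which were withdrawn on day 7, and a Rock inhibitor. Boost-Chir cultures had 7.5 µM CHIR99021 from day 4 to day 10, and the labels do not say which of the lower concentrations Low-Chir cultures had in that time. From day 10 the medium had 3 µM CHIR99021 with BDNF, GDNF, ascorbic acid, TGFβ3 and dibutyryl cAMP. Each culture gave 1 library for H3K4me3, 1 for H3K27me3 and 1 input without antibody, so no difference below has a replicate check. All libraries come from 1 cell line, and the labelled cell type was not checked, because peaks could not be matched to marker genes on their own build. The H3K4me3 library of Boost-Chir was 1.21 times as deep as that of Low-Chir and the H3K27me3 library 0.971 times, and over the genome H3K4me3 peaks covered 1.29 times the length in Boost-Chir.

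Clustered protocadherins are adhesion proteins of the neuronal surface. Each alpha and gamma gene has a variable exon with a promoter of its own, spliced to constant exons shared by its array, whereas beta genes have no shared exons. Single neurons use only some of the promoters, picked largely at random, while the C-type genes at the end of the alpha and gamma arrays are used more broadly. H3K4me3 marks promoters in use or ready for use, and H3K27me3 is laid down by Polycomb repressive complex. Signal from a bulk culture cannot tell a promoter marked in few cells from one marked weakly in many.

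The RefSeq table for GRCh38.p14, a later build than that of the peaks, holds 53 protein-coding genes of the family, 15 in alpha, 16 in beta and 22 in gamma. It served for names, gene order and promoter sequence only. The 53 genes are interrupted by SLC25A2, which encodes a mitochondrial ornithine carrier, and TAF7, which encodes a subunit of the general transcription factor TFIID, both between beta and gamma. Promoter sequence was found for 47 of the 53 genes, in 52 entries, as some genes have more than 1 start. The promoters are shown because they carry a feature that the family is known for, a short conserved element with the core CGCT, and because they differ between the arrays. Each stretch below is the RefSeq sequence (GRCh38.p14, chromosome 5, plus strand, 5′ to 3′) of up to 20 bases on either side of the CGCT nearest to 50 bases before the gene start, with that CGCT in capitals.

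The first set is from alpha genes, and the last 2 of its lines are C-type genes.
PCDHA1: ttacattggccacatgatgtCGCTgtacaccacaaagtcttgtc
PCDHA4: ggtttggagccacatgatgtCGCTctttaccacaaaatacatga
PCDHA6: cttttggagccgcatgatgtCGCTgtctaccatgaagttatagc
PCDHA10: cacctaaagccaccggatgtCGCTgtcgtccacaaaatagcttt
PCDHA12: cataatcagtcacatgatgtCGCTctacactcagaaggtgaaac
PCDHAC1: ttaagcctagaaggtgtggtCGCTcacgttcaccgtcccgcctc
PCDHAC2: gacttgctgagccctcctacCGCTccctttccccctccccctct

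The second set is from beta genes, of which PCDHB1 is the first in the array.
PCDHB1: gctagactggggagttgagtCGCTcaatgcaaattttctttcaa
PCDHB2: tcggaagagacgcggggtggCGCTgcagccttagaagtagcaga
PCDHB4: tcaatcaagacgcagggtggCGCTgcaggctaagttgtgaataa
PCDHB10: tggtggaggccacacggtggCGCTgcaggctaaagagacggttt
PCDHB15: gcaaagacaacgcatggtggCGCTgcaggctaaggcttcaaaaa

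The last set is from gamma genes of the A and B types and from the C-type genes PCDHGC3 and PCDHGC4.
PCDHGA2: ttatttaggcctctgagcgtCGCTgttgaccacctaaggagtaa
PCDHGA8: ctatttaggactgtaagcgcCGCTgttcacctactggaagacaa
PCDHGA10: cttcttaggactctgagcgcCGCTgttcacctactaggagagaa
PCDHGB1: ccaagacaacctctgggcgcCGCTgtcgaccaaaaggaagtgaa
PCDHGB7: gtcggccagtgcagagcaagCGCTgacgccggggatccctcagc
PCDHGC3: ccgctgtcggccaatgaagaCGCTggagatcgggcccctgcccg
PCDHGC4: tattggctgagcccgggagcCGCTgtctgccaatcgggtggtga

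In the 100 bases before the start, CGCT stood on the gene's strand in 44 of the 52 entries (84.6%), against 28.1% of the 35116 promoters of the table. On either strand the shares were 88.5% and 44.8%. The CGCT taken for each gene stood at a median of 55 bases before the start over the 44 genes that had it there. Only 100 bases were searched, and where a gene had more than 1 match, the one nearest the set distance given above was kept. The median therefore cannot show a preferred position. Flanks followed the array in many of the aligned stretches. Those of PCDHAC2, PCDHB1, PCDHGB7, PCDHGC3 and PCDHGC4 differed from most others of their set. The letters GTCGCT were found on the gene's strand in 11 of 13 alpha, 2 of 14 beta and 5 of 25 gamma entries, and in 1.43% of all promoters. GGTGGCGCT was found in 12 of 14 beta entries, in 0 of 13 alpha and 0 of 25 gamma entries, and in 0.151% of all promoters. CGCTGTT was found in 12 of 25 gamma, 1 of 14 beta and 0 of 13 alpha entries, against 0.402% of all promoters. On either strand the shares of all promoters were 2.61%, 0.214% and 0.703%, and the counts over the 52 entries were the same as on the gene's strand for each of these. All of these words contain CGCT, and the longer ones were chosen after the sequences had been read. A match is a description of the letters and no sign of a bound factor.

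The promoters also divided by base composition. In the 250 bases before the start, G and C made up a median of 39.4% over the 52 entries, against 58.0% over the whole table. The median was 34.8% in alpha, 39.6% in beta and 44.4% in gamma. The 5 entries of C-type genes ranged from 57.6% to 63.2%, whereas the other 47 had a median of 37.6% and a range of 30% to 62%. The median number of CpG pairs was 15 in the C-type entries and 6 in the others.

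**Figure D1:**
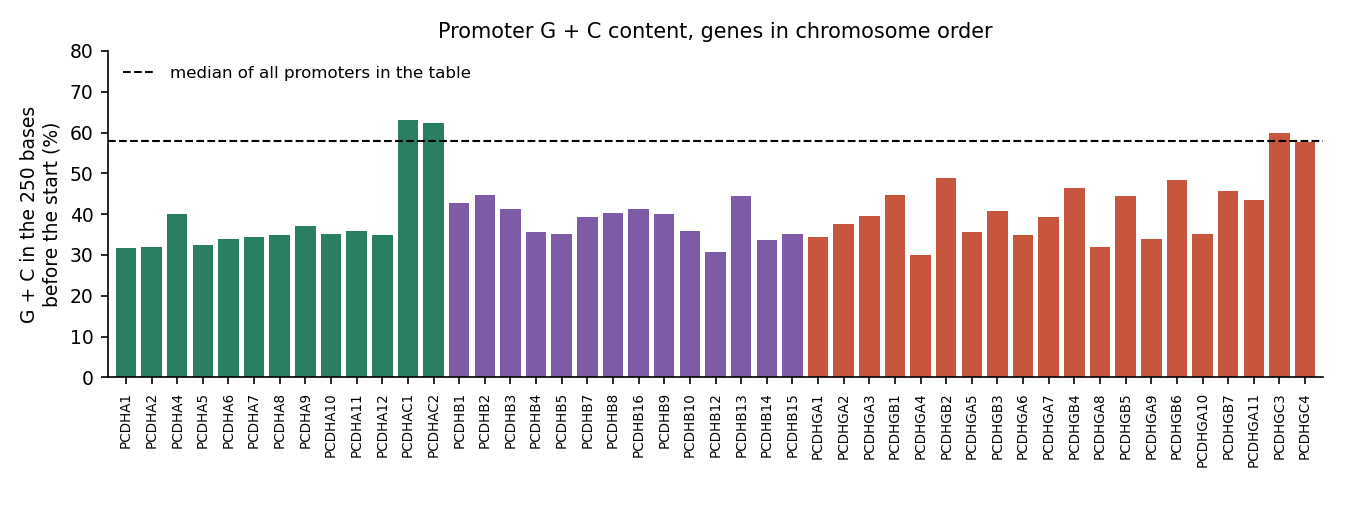
Bars give the percent of G and C in the 250 bases before the start of each gene with a RefSeq promoter (first entry per gene, GRCh38.p14), in chromosome order, green for alpha, purple for beta and red for gamma. The dashed line is the median of all promoters, 58.0%. PCDHAC1, PCDHAC2 and PCDHGC3 stand above the line and PCDHGC4, at 57.6%, just under it.

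H3K4me3 was present along the region as a small number of separate peaks. Peaks within 3 kb of each other in 1 list were joined into loci, which gave 17 loci in Low-Chir cells and 15 in Boost-Chir. In each list, 1 of them lay between alpha and beta and 1 between beta and gamma, outside the windows of the 3 arrays. H3K4me3 covered 2.67% of the region in Low-Chir cells and 4.16% in Boost-Chir, against 1.26% and 1.63% of the genome. The region held 43.5 peaks per Mb in Low-Chir cells and 57.1 in Boost-Chir, against 14.4 and 15.3 over the genome. Of 4111 other windows of 735 kb, taken end to end over the genome without chromosome Y, 252 (6.13%) had more H3K4me3 peaks than the region by the Low-Chir list and 171 (4.16%) by the Boost-Chir list. The 735 kb just before the region held 63 and 65 peaks and the 735 kb just after it 30 and 25, in Low-Chir and Boost-Chir.

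**Figure D2:**
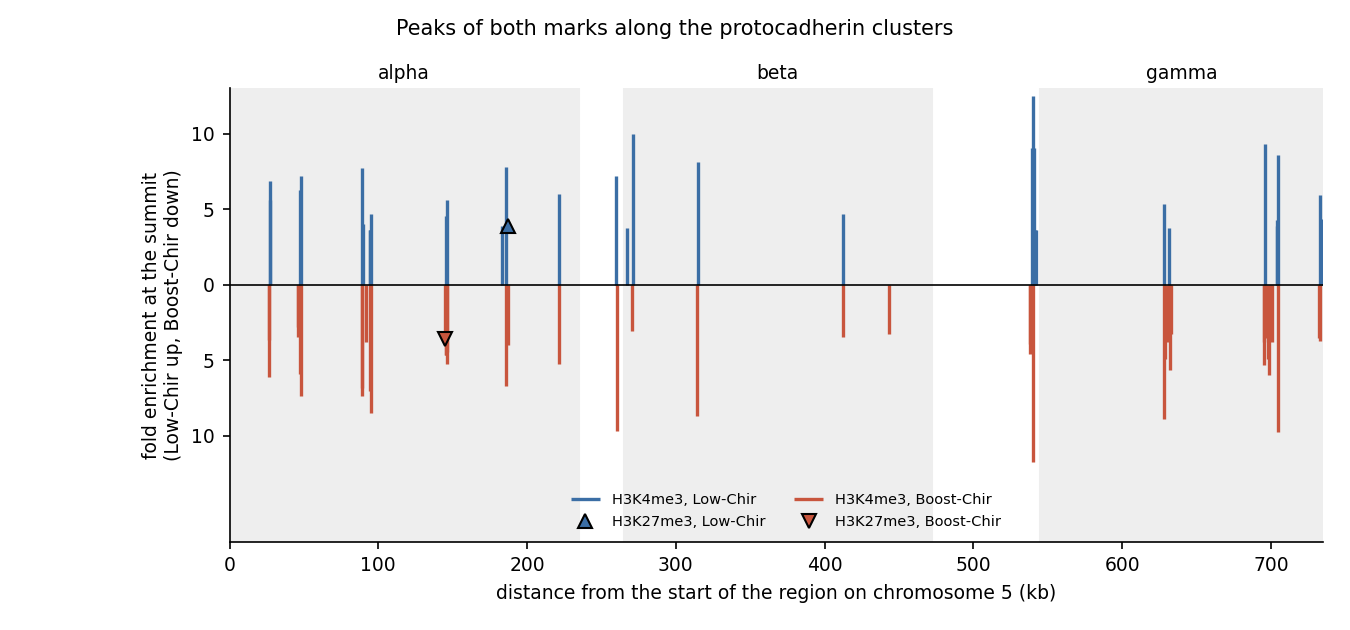
Each vertical line is an H3K4me3 peak, placed by its summit along the region (x axis, kb from its start) with its fold enrichment on the y axis, upward for Low-Chir and downward for Boost-Chir. Triangles are the 2 H3K27me3 peaks, and grey bands are the alpha, beta and gamma windows. Peaks stand in the same few places in both cultures, and the beta window has the fewest, with 4 in each culture.

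The 3 arrays were marked to different degrees. Alpha had 14 peaks in Low-Chir cells and 19 in Boost-Chir, which is 59.6 and 80.9 peaks per Mb. Beta had 4 peaks in each culture, 19.3 per Mb. Gamma had 8 and 15 peaks, 42.1 and 78.9 per Mb. Covered length was 3.85% and 4.95% of alpha, 1.09% and 1.55% of beta, and 2.29% and 5.72% of gamma. Beta was thus the least covered array in both cultures, and gamma passed alpha in Boost-Chir.

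Within the region the loci were closer together, by the median, than over the genome. The median distance between the strongest summits of neighbouring loci was 39.1 kb in Low-Chir, with a range of 4.17 to 128.1 kb, and 41.6 kb in Boost-Chir, with a range of 10.45 to 97.5 kb. Over all loci the median was 72.9 kb and 72.4 kb, and 32.6% and 34.5% of all distances were below the region's median. Long unmarked stretches separated the loci. In Low-Chir the longest ran from 140572156 to 140699057 (126.9 kb), from the beta array to the stretch that holds SLC25A2 and TAF7 by gene order. In Boost-Chir a peak at 140602959 to 140603451 broke that stretch, and 94.4 kb from 140603452 remained. In the middle of beta, 96.9 kb from 140475087 to 140571948 were free of H3K4me3 peaks in Low-Chir, and 96.4 kb from 140475538 to 140571957 in Boost-Chir. The first part of gamma lay in an unmarked stretch of 85.5 kb in Low-Chir, which ended at 140787598, and of 86.2 kb in Boost-Chir, which ended at 140787594.

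The loci were narrow and of modest height. The median locus of the region had 1139 bp under peaks in Low-Chir cells and 1528 bp in Boost-Chir, against 2179 and 2785 bp over all loci of each list. The median of the highest fold enrichment per locus, a ratio over the local background that the authors give for each peak, was 7.16 and 6.68, against 8.63 and 9.44. Loci of 1 single peak numbered 7 of 17 in Low-Chir and 6 of 15 in Boost-Chir, and made up 24.8% and 25.5% of all loci. In beta every locus was a single peak, 4 of 4 in each culture.

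In alpha, the peak with the highest fold enrichment in Low-Chir lay at 140345152 to 140347022, at 7.76-fold with 26 reads at its summit, and it was also the widest there, at 1871 bp. The next in Low-Chir were 140248554 to 140249137 at 7.73-fold and 140207607 to 140208118 at 7.16-fold. In Boost-Chir the order differed. The first was 140254899 to 140255921 at 8.49-fold with 32 reads, followed by 140248561 to 140249111 at 7.38-fold and 140207539 to 140208426 at 7.35-fold. The summits of these peaks had 22 to 41 reads, and their order within a culture is not beyond counting error.

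Each of the 6 alpha loci was found in both cultures. After the peaks of both lists had been joined, the summit with the most reads above its local background was taken from each culture, its reads above background were divided by library depth, and Boost-Chir was set over Low-Chir. The ratio was 1.03 at 140186356 to 140188047, from 21 reads in Low-Chir cells and 27 in Boost-Chir. It was 0.975 at 140205729 to 140208426, from 22 and 26 reads. At 140248554 to 140255921 it was 1.28, from 26 and 41 reads, the highest of alpha. The lowest was 0.790 at 140304939 to 140306943, from 25 reads at 140305731 in Low-Chir and 23 at 140306409 in Boost-Chir, which are different peaks. At 140343166 to 140347279 and at 140380689 to 140381952 the ratios were 0.957 and 1.06. Covered length was greater in Boost-Chir at 5 of these 6 loci, by 249 to 1137 bp, and at the last it fell by 232 bp, so alpha went from 9.04 to 11.6 kb. That ratio of 1.29 equals the genome's 1.29 as rounded. Over the genome, 11868 of the 14475 loci found in both cultures were longer in Boost-Chir, so a count of 5 of 6 does not set alpha apart.

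The stretch between alpha and beta held 1 peak in each list, at 140419265 to 140420739 in Low-Chir and at 140419246 to 140420773 in Boost-Chir. Its summit had 40 reads in Low-Chir cells and 61 in Boost-Chir, the most of any locus in the region in either culture. Fold enrichment was 7.22 and 9.67, and depth-scaled reads gave a ratio of 1.30. Its length hardly differed, at 1475 and 1528 bp. No protocadherin window of the rule includes this peak.

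Beta was the sparsest array and held the locus with the lowest Boost-Chir to Low-Chir ratio of the region. At 140430312 to 140431548, the highest Low-Chir peak of beta, fold enrichment was 9.96 in Low-Chir cells and 3.04 in Boost-Chir. The summit had 31 reads in Low-Chir cells and 24 in Boost-Chir. The local background beside them was 2.21 reads in Low-Chir cells and 7.21 in Boost-Chir, the highest of any H3K4me3 peak in the region. The depth-scaled ratio was 0.482, lower than at all but 0.311% of the 14475 loci found in both cultures. Without any background subtracted it was 0.641, with a counting interval of 0.360 to 1.13. The part of the local background in this difference was not tested further.

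A second beta locus, 140474227 to 140475537, was higher and longer in Boost-Chir. It had 26 reads in Low-Chir cells and 39 in Boost-Chir, with 8.09 and 8.68-fold enrichment, a ratio of 1.24 and 842 against 1311 bp. The remaining beta peaks were weak. At 140571949 to 140572209 there were 14 reads in Low-Chir cells and 18 in Boost-Chir, at 4.67 and 3.45-fold. The peak at 140426765 to 140426983 was in the Low-Chir list alone, with 11 reads and a −log10 q of 3.36. The peak at 140602959 to 140603451 was in the Boost-Chir list alone, at 3.28-fold with 20 reads over a local background of 5.41 and a −log10 q of 4.54. Both were outside the top 50% of their lists, whose limits were 7.32 and 6.30, so neither shows more than a weak peak of 1 list. Covered length over the whole of beta was 2.26 kb in Low-Chir cells and 3.215 kb in Boost-Chir, a ratio of 1.42. The direction rested on weak peaks, as the ratio was 0.642 among peaks with a −log10 q of at least 5.

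The stretch between beta and gamma held the peak with the highest fold enrichment of the whole region. In Low-Chir this was 140699937 to 140700374, at 12.5-fold with 39 reads, and in Boost-Chir 140698551 to 140701357, at 11.7-fold with 44 reads. The joined locus had 2499 bp under 5 peaks in Low-Chir and 3298 bp under 3 in Boost-Chir. Its ratio of depth-scaled reads was 0.926.

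Gamma had the greatest difference in marked length between the cultures. Covered length was 4.36 kb in Low-Chir cells and 10.9 kb in Boost-Chir, a ratio of 2.50 against 1.29 over the genome. Of 15942 other windows of 190 kb, 3439 had at least as much H3K4me3 in Low-Chir as gamma. Their median ratio was 1.28, and 4 of them (0.116%) had a ratio as high as gamma. The same ratio in windows of their own length was reached by 50.4% for alpha and by 25.1% for beta. These shares describe where each array stands in this pair of libraries and are not a test. Each array had the least Low-Chir length allowed in its set of windows, so the sets were not matched for length.

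**Figure D3:**
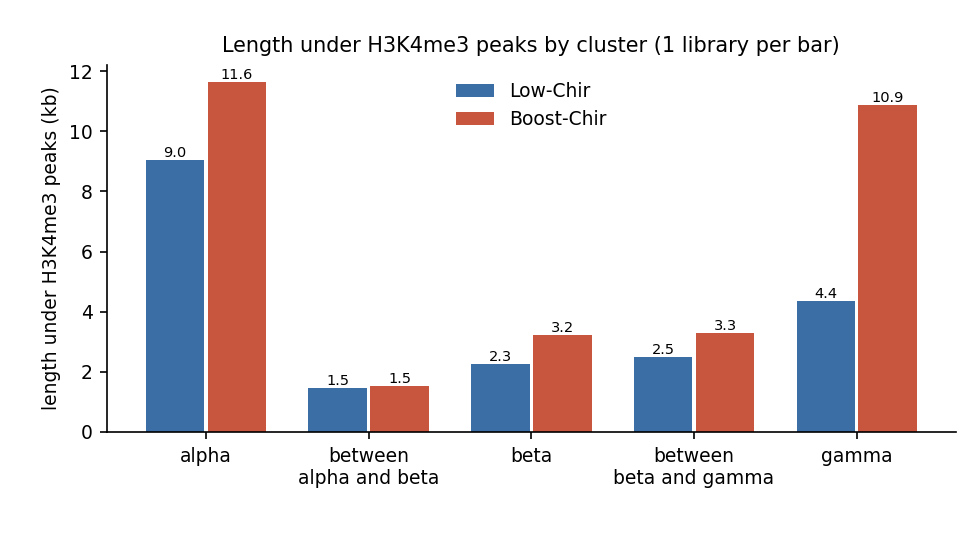
Bars give the kb under H3K4me3 peaks in each window of the region, blue for Low-Chir and red for Boost-Chir, with 1 library per bar and hence no error bar. Gamma went from 4.4 to 10.9 kb, the greatest difference, while alpha went from 9.0 to 11.6 kb.

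The gain in gamma came from 2 of its 3 loci. At 140855037 to 140866207, 1778 bp under 4 peaks in Low-Chir stood against 7030 bp under 8 peaks in Boost-Chir, a gain of 5252 bp. In Low-Chir this locus was a peak at 140855542 to 140856218 at 9.31-fold, the highest of gamma, and a group whose highest peak, 140864592 to 140865211, had 8.58-fold enrichment. In Boost-Chir that group was a single peak of 3373 bp, 140862835 to 140866207, the longest peak of the region in either list, at 9.72-fold. Smaller Boost-Chir peaks filled the space between, of which 140858218 to 140859537 was the highest at 5.99-fold with 21 reads. Only these Boost-Chir peaks joined the Low-Chir peaks into 1 locus, as gamma had 4 loci in the Low-Chir list alone. The ratio of covered length of the whole locus so formed, 3.95, was above that of 99.1% of all loci. Summit height did not go the same way, with 33 reads for Low-Chir and 35 for Boost-Chir and a depth-scaled ratio of 0.880. The Boost-Chir peak over the highest Low-Chir peak, 140855516 to 140856573, had 38 reads over a raised local background of 6.31 reads and 5.33-fold enrichment.

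At 140787595 to 140793540 both length and height were greater in Boost-Chir. Covered length was 1391 bp in Low-Chir cells and 3330 bp in Boost-Chir. The summit had 25 and 43 reads at 5.31 and 8.86-fold, and the depth-scaled ratio was 1.53, the highest of the region. Without background subtracted it was 1.42, under the 1.5 used as a limit, with a counting interval of 0.850 to 2.43. The last gamma locus, 140892482 to 140893746, went the other way. Its highest Low-Chir peak, 140892482 to 140893181, had 5.92-fold enrichment, the third in gamma by fold. The locus had 1188 bp and 18 reads in Low-Chir and 511 bp and 14 reads in Boost-Chir, with a ratio of 0.573 in depth-scaled reads and 0.430 in length.

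Across the region, 16 loci were formed from both lists and 14 of them were marked in both cultures. The median ratio of depth-scaled reads over these 14 was 0.966, against 1.09 over all 14475 loci. Without background subtraction the 2 medians were 1.03 and 1.08. With it, 6 of 14 loci were above 1, against 9559 of all 14475. A ratio of at least 1.5 was found at 1 locus, against a background of 5.11% of all loci, and a ratio at or below the inverse of 1.5 at 2, against 2.96%. Without background subtraction the first of these counts was 0 and the second still 2. These counts are too few to be told from those shares. At each of the 14, the 95% interval for reads per unit of depth, which covers counting error only, included a ratio of 1, and over the genome 1.08% of loci had an interval that did not. At this depth no change in summit height could be shown at any single locus. Covered length was at least 1.5 times as long in Boost-Chir at 5 of 14 loci, against 27.1%, and shorter by a factor of at least 1.5 at 1, against 3.99%.

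**Figure D4:**
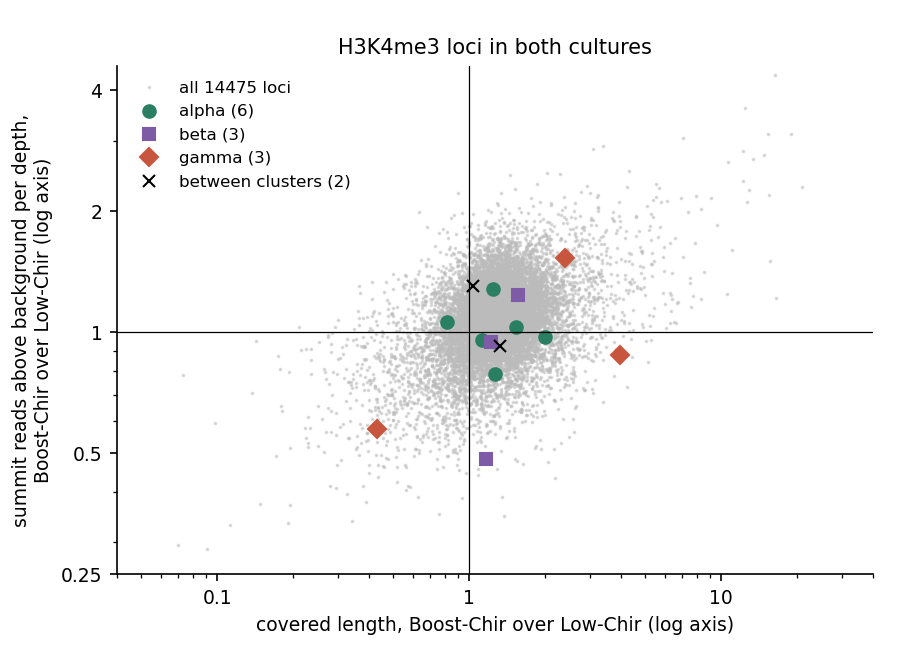
Each point is an H3K4me3 locus marked in both cultures, with the Boost-Chir to Low-Chir ratio of covered length on the x axis and that of depth-scaled summit reads on the y axis, both on log axes. Grey points are all 14475 loci and symbols are the 14 of the region. The 3 gamma loci lie apart in length, at 0.430, 2.39 and 3.95, and a beta locus lies lowest in reads, at 0.482.

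For the region as a whole, the shares of H3K4me3 peaks without a partner in the other culture lay near those of the whole lists. Of the 32 Low-Chir H3K4me3 peaks, 4 (12.5%, exact 95% interval 3.51 to 29.0) had no overlapping Boost-Chir peak, against 16.4% of the whole list. Of the 42 Boost-Chir peaks, 18 (42.9%, 27.7 to 59.0) had no Low-Chir partner, against 40.4%. Gamma held 9 of the 18, out of its 15 Boost-Chir peaks. All 4 of the Low-Chir peaks and 14 of the 18 Boost-Chir peaks were outside the top 50% of their lists. The same share was not computed for all peaks without a partner, so these counts describe no trait of the region. The 4 stronger ones were 140305257 to 140305462 in alpha and 140789030 to 140789289, 140857771 to 140858063 and 140858218 to 140859537 in gamma, with −log10 q of 7.00, 7.11, 7.79 and 10.5. Each of them lay inside a locus that Low-Chir peaks marked too.

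H3K27me3 was nearly absent from the region. Low-Chir had 1 peak, at 140347123 to 140347324 in alpha, of 202 bp with 17 reads at the summit and 3.92-fold enrichment. Boost-Chir had 1 peak, at 140304796 to 140305082, also in alpha, of 287 bp with 14 reads and 3.62-fold enrichment. They lay 42.0 kb apart, and neither overlapped a peak of the other culture, which also held for 43.1% of all Low-Chir and 36.3% of all Boost-Chir H3K27me3 peaks. By −log10 q they stood at the 30.4th and 12.5th percentile of their lists. Beta, gamma and the stretches between the arrays had 0 H3K27me3 peaks in either list.

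Both H3K27me3 peaks lay at the edge of an H3K4me3 locus. The Low-Chir peak was separated by 100 bp from an H3K4me3 peak of its own culture, and it overlapped the Boost-Chir H3K4me3 peak at 140346909 to 140347279, of 15 reads. The Boost-Chir peak shared 144 bp with an H3K4me3 peak of its own culture, 140304939 to 140305138, which had 11 reads. By the count of loci with at least 1 bp of both marks in 1 culture, 0 of 17 loci qualified in Low-Chir (exact 95% interval 0 to 19.5%) and 1 of 15 in Boost-Chir (6.67%, 0.169 to 31.9). Over all H3K4me3 loci the shares were 20.4% and 19.7%. The Low-Chir share lay just outside its interval's upper bound and the Boost-Chir share inside its own. The Low-Chir count of 0 depends on how loci were formed. With peaks of both lists joined, the locus 140343166 to 140347279 held 157 bp of Low-Chir H3K27me3. Locus length, at a median of 1139 bp in the region against 2179 bp over all Low-Chir loci, was not adjusted for.

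The scarcity of H3K27me3 stood out only beside the amount of H3K4me3. Among all 4111 windows, 53.1% in Low-Chir cells and 52.6% in Boost-Chir had no more than the region's 1 H3K27me3 peak. Among the 268 windows with at least as many H3K4me3 peaks as the region in Low-Chir, the median was 15 H3K27me3 peaks and 33 (12.3%) had at most 1. In Boost-Chir 20 of 178 such windows (11.2%) had at most 1, with a median of 19. The neighbouring 735 kb on either side held the mark only at a distance from the region. The stretch before held 18 H3K27me3 peaks in Low-Chir cells and 25 in Boost-Chir, and the stretch after held 9 and 8. The nearest of them lay 606.4 and 626.5 kb before the region and 167.5 and 174.9 kb after it. The stretch nearly free of H3K27me3 peaks thus reached well beyond the protocadherin arrays.

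**Figure D5:**
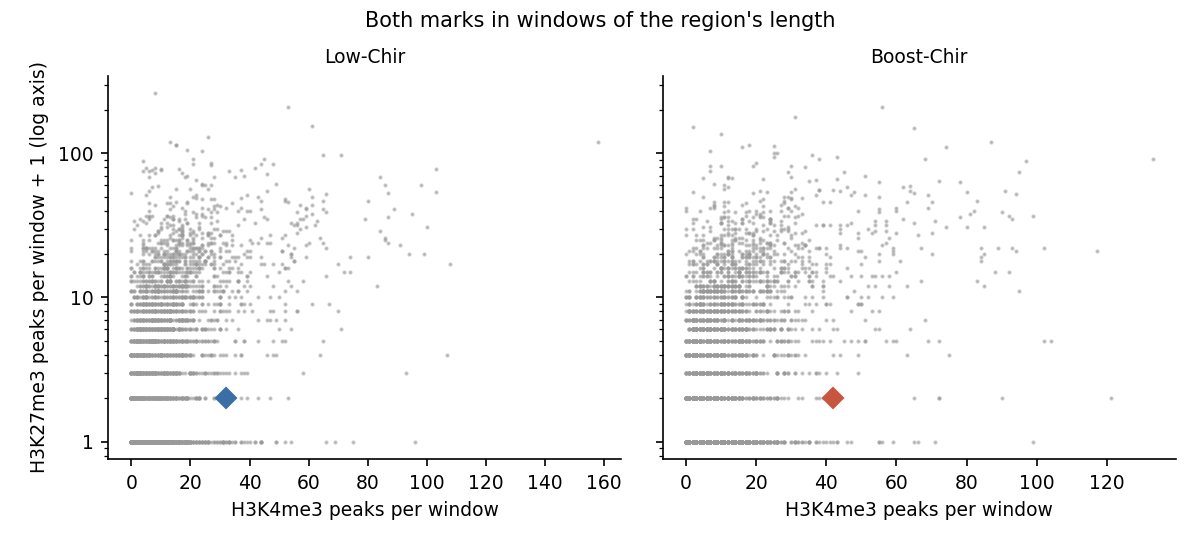
Each grey point is a window of 735 kb, with its H3K4me3 peaks on the x axis and its H3K27me3 peaks plus 1 on the y axis (log axis), for Low-Chir on the left and Boost-Chir on the right. The diamond is the protocadherin region, with 32 and 42 H3K4me3 peaks and 1 H3K27me3 peak in each culture. It lies to the right of most windows and near the bottom.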

How the data were processed

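H3K4me3 and H3K27me3 ChIP-seq peak lists of 4 antibody libraries were used. The 2 inputs were not analysed here. The submitters' processing notes name cutadapt 1.6, BWA 0.7.12, Picard and hg19, and each list was called against the input of the same culture, as its peak names say. The peak caller is not given in the sources used here. Fold enrichment (a ratio), −log10 p, −log10 q and a score are the authors' deposited values, and the score, a truncated multiple of −log10 q, was not used.

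Reads at a summit and its local background were solved from the deposited fold and −log10 p, assuming a fold of reads plus 1 over background plus 1 and a Poisson tail, with whole reads within 0.01 for 100% of peaks. For 2 of the region's peaks, neither used for a ratio, more than 1 solution was possible. Depth is the genome-wide background so obtained, 2.21 and 2.67 reads for H3K4me3 and 3.12 and 3.03 for H3K27me3, in Low-Chir and Boost-Chir. The procedure was tested on simulated data. The ratio of summits was taken per locus, using the highest summit of each culture, rather than per pair of peaks. The summits of a locus can therefore lie in different places in the 2 cultures.

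A peak counted in the region with at least 1 bp inside, and as shared with at least 1 bp of overlap. Ratio intervals are exact conditional binomial and shares Clopper-Pearson, both at 95% and for counting error only. No p-value was computed. Genes could not be placed on hg19, so the planned count of gene starts was not run. The text accounts for every locus, gives the 3 peaks with the highest fold per array and mark where there are as many, and names each peak with both marks, past 1.5-fold, or in 1 culture alone and among the 50% of its list with the highest −log10 q. The region, windows, motifs and rules were chosen with earlier results of these data known. Python 3.11.15, numpy 2.4.6, pandas 2.3.3, scipy 1.17.1 and matplotlib 3.10.9 were used.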

Additional observations from a re-analysis of the deposited data

How the results depend on the processing

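No paired analysis was possible because there is only 1 library of a mark in each culture. With the top 50% of each list by −log10 q, H3K4me3 peaks in the region came to 20 in Low-Chir cells and 23 in Boost-Chir, and H3K27me3 peaks and their covered length were 0 in both cultures, so that no share of overlapped H3K27me3 peaks could be computed there. The share of H3K4me3 peaks overlapped in the other culture was 40.6% for Low-Chir and 31.0% for Boost-Chir with reciprocal overlap of 50%, and 100% and 82.6% for the top 50% against all peaks of the other list. Without joining, the median distance between summits was 4.17 kb in Low-Chir cells and 1.335 kb in Boost-Chir. Asking for 500 bp of H3K27me3 left 0% of Boost-Chir loci with both marks. The covered length of beta turned direction, from a Boost-Chir to Low-Chir ratio of 1.42 to 0.642 with a −log10 q of at least 5 and to 0.715 with the top 50%, because the Boost-Chir peak at 140430312, with a −log10 q of 4.72, then drops out. For gamma the ratio was between 2.17 and 2.50 under its 4 alternatives. The alternatives for covered-length ratios, and summits without background subtraction, were added after seeing the data. For single loci, 27 of 28 alternative values of the summit ratio stayed within 1.5 times, the exception being 0.305 at 140430312 by the authors' fold enrichment. Of 90 alternative values in all, 74 stayed within 1.5 times or inside the interval. Depth limits the summit ratios, since the 14 loci with a ratio had 14 to 61 reads at the summit. At 140787595 the ratio was 1.53, and 1.42 without background subtraction.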
